A study of Mus musculus with 22 samples.

Results

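The E2F genes encode 8 transcription factors of the cell cycle, and their mRNA levels were read in primary neural stem cells (NSCs) grown from the hippocampus of adult mice. The members were the rows named E2f1 to E2f8 in both deposited tables, 8 of the 24411 genes that each table lists. All 8 passed the filter on low counts in both tables. The study reduced O-GlcNAcylation, the attachment of single sugar residues to nuclear and cytosolic proteins by O-GlcNAc transferase (OGT), in 2 arms. The knockdown arm holds 5 libraries of cells infected for 3 days with lentivirus that encodes a hairpin RNA to Ogt (shOgt). Its 6 control libraries (shLuc) are of cells infected with a luciferase hairpin, which targets no mouse gene, and both groups received 10 viral particles per cell. The inhibitor arm holds 5 libraries of cells exposed for 24 h to 12.5 µM OSMI-1, which blocks the OGT enzyme, and 6 of cells exposed to its DMSO vehicle. All cells were plated cultures kept in medium with the growth factors EGF and bFGF, and both knockdown groups carry lentivirus. Whether replicates are separate cultures or animals is not given in the labels, so p-values measure the spread between these libraries, which may be technical.

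Values are the authors' normalized counts, that is reads per gene divided by a size factor of the library, and the 2 arms were normalized separately. Levels were compared only within an arm, and between the arms only fold changes and values centred on each arm's own controls were set against each other. Fold changes are on the log2(normalized count + 1) scale, which understates the change of low genes. They were tested with limma over all genes of a table, and a gene was called where its Benjamini-Hochberg adjusted p lay below 0.05. Knockdown libraries held 7.22 to 13.2 M reads and inhibitor libraries 4.52 to 12.8 M. The upper end of the inhibitor arm was OSMI-1 replicate 4 alone, and the next library, vehicle replicate 4, held 5.93 M. The ribosomal RNA gene Rn45s took 0.921 to 1.25% of reads in knockdown libraries and 4.81 to 14.2% in inhibitor libraries. A single E2F gene had 21 to 280 reads in a knockdown library and 9 to 180 in an inhibitor library. The hairpin target was lower in every shOgt library: Ogt averaged 424.5 ± 63.9 normalized counts in shOgt cells and 836.4 ± 89.8 in shLuc cells (SD, n = 5 and 6; log2 fold change -0.98 ± 0.11 SE, limma adjusted p = 1.1e-06). Ogt mRNA rose by 0.40 ± 0.08 after OSMI-1 (limma adjusted p = 0.001). Markers of microglia and of vessel cells did not reach the filter in either arm (0 of 6 tested for each list), with summed levels of at most 20.6 normalized counts per library. Neural stem cell markers were present, with summed levels of 33840 to 39340 normalized counts in shOgt libraries and 37590 to 42380 in shLuc libraries, and of 17670 to 19270 in OSMI-1 libraries and 22400 to 27090 in vehicle libraries.

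E2F proteins bind short GC-rich elements in the promoters of genes for DNA replication and mitosis. E2F1, E2F2 and E2F3 are classed as activators and are held in check by the retinoblastoma protein RB. E2F4 and E2F5 act mostly as repressors together with the RB relatives p107 and p130, and E2F6 represses without these pocket proteins, in a Polycomb complex. E2F7 and E2F8, the atypical members, bind DNA without a DP partner and repress E2F target genes late in the cycle. Several E2F genes are themselves E2F targets, so their mRNA follows the state of the cycle. In the adult hippocampus, NSCs divide or rest, and the E2F pathway takes part in that choice.

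The promoters of the 4 members that fell after OSMI-1 are shown because the mRNA of these members changed and each window holds an E2F element. Each run is 300 bases from RefSeq (build GRCm38.p6), 250 before and 50 after an annotated start, written 5′ to 3′ on the gene's strand. Capitals mark matches to an E2F element (the words TTCCCGC and also TTGGCGC, and further TTCGCGC as well as TTGCCGC, on either strand) and to a cell cycle homology region or CHR (TTTGAA, either strand), the element bound by the MuvB complex.
E2f8 (chr7:48881547-48881846, minus strand): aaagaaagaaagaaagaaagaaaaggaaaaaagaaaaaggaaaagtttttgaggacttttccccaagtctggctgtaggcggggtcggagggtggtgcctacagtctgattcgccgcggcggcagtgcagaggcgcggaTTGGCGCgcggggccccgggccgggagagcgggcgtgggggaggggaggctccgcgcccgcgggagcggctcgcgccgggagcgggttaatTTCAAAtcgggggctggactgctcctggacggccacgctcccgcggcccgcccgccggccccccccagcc
E2f7 (chr10:110745189-110745488, plus strand): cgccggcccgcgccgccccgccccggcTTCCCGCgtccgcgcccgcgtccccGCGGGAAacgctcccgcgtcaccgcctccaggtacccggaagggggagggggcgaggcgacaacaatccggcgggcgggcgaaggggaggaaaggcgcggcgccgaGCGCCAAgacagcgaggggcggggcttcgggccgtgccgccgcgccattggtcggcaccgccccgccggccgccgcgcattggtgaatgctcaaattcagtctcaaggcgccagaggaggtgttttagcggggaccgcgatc
E2f2 (chr4:136172024-136172323, plus strand): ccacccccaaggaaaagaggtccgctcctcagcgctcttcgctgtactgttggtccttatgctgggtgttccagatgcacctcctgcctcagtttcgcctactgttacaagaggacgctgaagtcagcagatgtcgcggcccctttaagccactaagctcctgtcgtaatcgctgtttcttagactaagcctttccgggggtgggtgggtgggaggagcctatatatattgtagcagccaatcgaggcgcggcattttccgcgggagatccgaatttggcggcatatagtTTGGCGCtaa
E2f3 (chr13:29986014-29986313, minus strand): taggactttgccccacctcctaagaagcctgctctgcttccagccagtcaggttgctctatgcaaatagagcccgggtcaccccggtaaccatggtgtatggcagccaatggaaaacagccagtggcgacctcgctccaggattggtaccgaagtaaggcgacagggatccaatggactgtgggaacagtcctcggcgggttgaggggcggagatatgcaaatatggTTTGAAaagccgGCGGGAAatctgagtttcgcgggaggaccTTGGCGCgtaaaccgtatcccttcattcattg
The E2f8 window holds 1 E2F element that begins 111 bases upstream of the start and 1 CHR that begins 20 bases upstream. The E2f7 window holds 3 E2F elements, all upstream, and no CHR. In the E2f2 window the single E2F element lies downstream of the RefSeq start. That start lies before the gene start in the GENCODE annotation, so the element is upstream of the GENCODE start. The E2f3 window holds 2 E2F elements and 1 CHR, all near the start. Over all 32851 promoter windows, 9.57% hold an E2F element and 17.9% a CHR, and over the 12022 windows of genes tested here the shares are 17% and 11.6%. RefSeq windows were found for 6 of the 8 members, E2f4 and E2f5 being the other ones. The E2f6 window and a second E2f3 window hold neither motif, and a second E2f2 window, inside the gene, holds only a CHR. The E2f1 window also holds neither, but it belongs to an internal start well inside the annotated gene. A match is a match of letters and was not tested as a binding site.

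After Ogt knockdown, E2f8, E2f2 and E2f4 fell and no E2F gene rose. The 3 fallen genes are 3 of 8 members, against a background of 16.4% of all 12136 tested genes that fell (31.8% called in either direction). After OSMI-1, E2f8, E2f7, E2f2 and E2f3 fell and none rose, which is 4 of 8 members against 13.2% of all 11349 tested genes that fell (24.8% called in either direction). The count of risen members was 0 in both arms by limma, edgeR and DESeq2, and 0 members had a positive change at an unadjusted p below 0.05. The median log2 fold change of the 8 members was -0.47 after knockdown and -0.42 after OSMI-1, beside 0.01 and 0.00 over all tested genes. Markers of other cell types moved beside these counts. Of the 3 neuron markers tested of 6 listed, 2 rose after knockdown and 3 fell after OSMI-1. Their summed level was 633.8 to 732 normalized counts in shOgt libraries and 289 to 320.8 in shLuc libraries, and 80.2 to 111.5 in OSMI-1 libraries and 143.4 to 188.2 in vehicle libraries. Of the astrocyte markers, 2 of 3 tested rose after OSMI-1 (summed level 2403 to 2680 in OSMI-1 libraries and 1929 to 2268 in vehicle libraries), and none of 4 was called after knockdown (4081 to 5122 in shOgt libraries and 3888 to 4127 in shLuc libraries). Of the oligodendrocyte markers, the 1 tested rose after knockdown and 1 of 3 fell after OSMI-1. Of 7 neural stem cell markers tested, 1 rose and 2 fell after knockdown, and 1 rose and 3 fell after OSMI-1. The part of these markers in the E2F results was not tested. In bulk RNA, fewer cells in a phase of the cycle and less E2F mRNA per cell cannot be told apart.

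**Figure D1:**
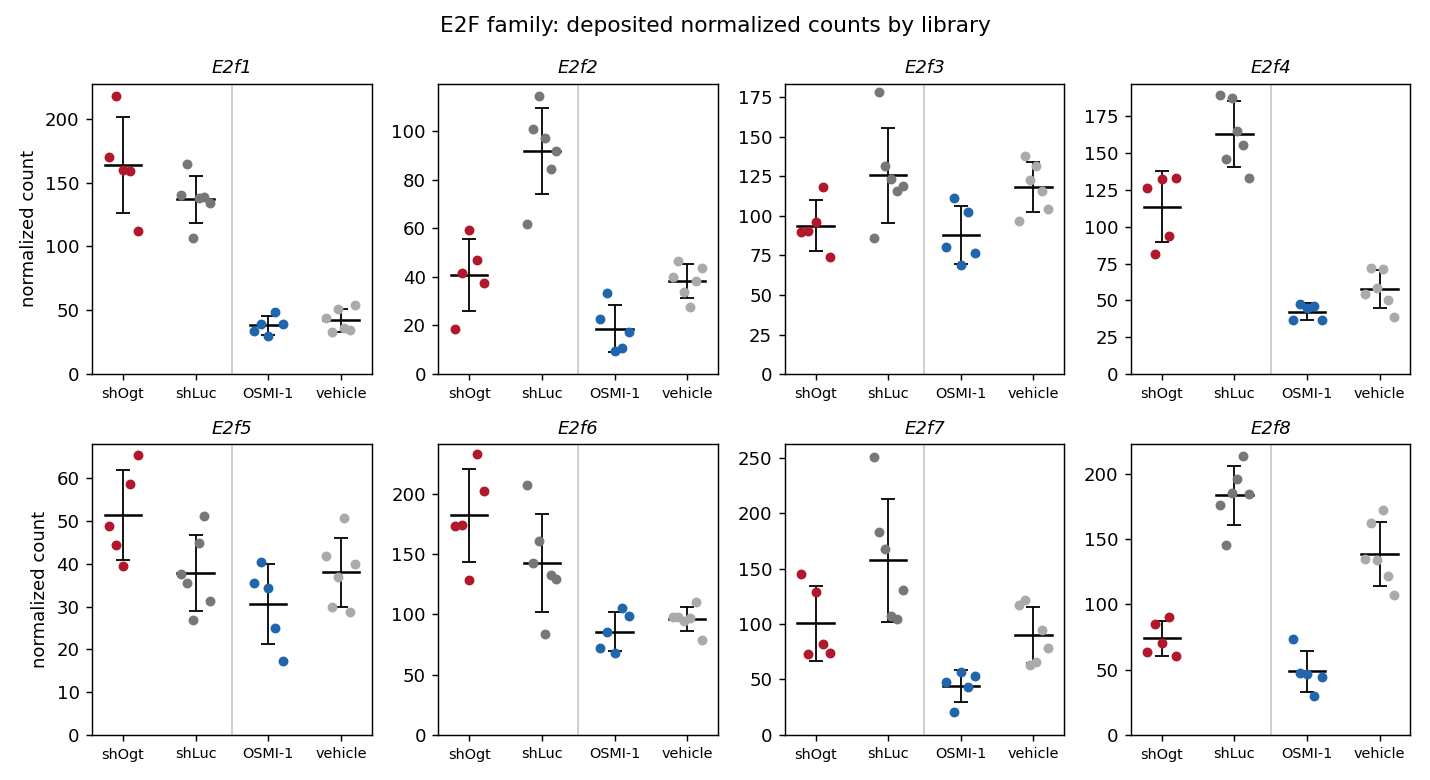
Normalized counts of the 8 E2F genes in each of the 22 libraries (points), with the group mean (line) and SD (bars), each vertical axis starting at 0; the arms left and right of the grey line were normalized separately. E2f8 lies between 60.3 and 90.7 in shOgt libraries, below all shLuc libraries, and between 29.8 and 73.8 in OSMI-1 libraries, below all vehicle libraries.

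Of the atypical repressors, E2f8 showed the largest fall of the family in both arms. Its 5 shOgt libraries had 63.2, 84.8, 70.6, 90.7 and 60.3 normalized counts, whereas the 6 shLuc libraries had a lowest value of 145.5, a median of 184.8 and a highest of 213.5. Every shOgt library lay below every shLuc library, a pattern found in 9.96% of tested genes. E2f8 averaged 73.9 ± 13.3 normalized counts in shOgt cells and 183.5 ± 22.7 in shLuc cells (SD, n = 5 and 6), a log2 fold change of -1.31 ± 0.16 SE (limma adjusted p = 5.9e-06). After OSMI-1 its values were 73.8, 47.6, 46.9, 29.8 and 44.7 normalized counts, and the vehicle libraries ran from 107.0 over a median of 134.3 to 172.1. The groups again did not overlap, as in 7.71% of tested genes of that arm. The mean was 48.6 ± 15.9 in OSMI-1 cells and 138.6 ± 24.5 in vehicle cells (log2 fold change -1.53 ± 0.19, limma adjusted p = 2.7e-06).

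E2f7, the second atypical repressor, was low in the same direction but was called in the inhibitor arm alone. Its shOgt libraries had 145.0, 73.0, 128.5, 82.2 and 73.9 normalized counts, and its shLuc libraries ran from 104.4 over a median of 149.4 to 250.5. The shOgt libraries fell into a higher pair (145.0 and 128.5), within the shLuc range, and 3 libraries below it. The log2 fold change was -0.63 ± 0.24 with a limma adjusted p of 0.051, just short of the threshold, and edgeR and DESeq2 on the recovered reads gave 0.046 and 0.039. In OSMI-1 libraries E2f7 had 47.4, 20.3, 56.8, 43.0 and 52.7 normalized counts, whereas vehicle libraries ran from 63.1 over a median of 86.5 to 121.2. All OSMI-1 libraries lay below all vehicle libraries (44.0 ± 14.3 in OSMI-1 cells and 90.1 ± 25.2 in vehicle cells; -1.05 ± 0.24, limma adjusted p = 0.0025). The fold changes of the 2 arms differed by 0.42 (knockdown minus inhibitor, 95% interval -0.32 to 1.16, limma adjusted p = 0.44), so the arms were not shown to differ for E2f7. In the annotation, exons of E2f7 and E2f8 overlap exons of noncoding genes on the other strand (1700020G17Rik and Gm2788). The protocol in the labels is strand-specific whereas the design text names a method that is not, so reads of these partners could be among the counts.

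Among the activators, E2f2 fell in both arms. Its shOgt libraries had 18.7, 41.4, 59.3, 47.0 and 37.5 normalized counts, and its shLuc libraries ran from 61.7 over a median of 94.5 to 114.2. The groups did not overlap, although the highest shOgt library (59.3) came close to the lowest shLuc library. E2f2 averaged 40.8 ± 14.8 in shOgt cells and 91.7 ± 17.7 in shLuc cells (-1.22 ± 0.27, limma adjusted p = 0.0016). In OSMI-1 libraries it had 22.8, 33.5, 9.47, 10.7 and 17.2 normalized counts, and vehicle libraries ran from 27.7 over a median of 39.0 to 46.7. OSMI-1 replicate 2, at 33.5, lay within the vehicle range, and the other 4 libraries lay below it. The mean was 18.7 ± 9.81 in OSMI-1 cells and 38.3 ± 6.82 in vehicle cells (-1.12 ± 0.30, limma adjusted p = 0.0082). E2f2 was the member with the fewest reads in the inhibitor arm, with 9 to 33 reads in an OSMI-1 library and 29 to 42 in a vehicle library.

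E2f3, an activator that also gives a shorter repressive protein form in mammals, was lower in both arms by similar amounts. Its shOgt libraries had 89.8, 90.8, 96.0, 118.4 and 73.9 normalized counts, and the shLuc libraries ran from 85.9 over a median of 121.1 to 178.2. These groups overlapped, and the change of -0.40 ± 0.19 was not called (limma adjusted p = 0.12). In OSMI-1 libraries E2f3 had 80.2, 111.5, 68.9, 102.6 and 76.8 normalized counts, and in vehicle libraries it ran from 97.0 over a median of 119.3 to 137.9. OSMI-1 replicates 2 and 5 overlapped the vehicle range, and the change of -0.44 ± 0.16 was called with a limma adjusted p of 0.043. That call is weak: leaving out 1 library lost it for 7 of the 11 libraries (vehicle replicates 2, 3, 4 and 5 and OSMI-1 replicates 1, 4 and 6), with adjusted p-values up to 0.12. The tables do not separate the transcript forms of E2f3.

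E2f1, the best studied activator, was not called in either arm. Its shOgt libraries had 169.9, 218.0, 159.5, 159.0 and 112.4 normalized counts, and its shLuc libraries ran from 106.3 over a median of 138.2 to 164.2. Of the shOgt libraries, 2 lay above the shLuc range and none below it. The log2 fold change was 0.24 (95% interval -0.12 to 0.59, limma adjusted p = 0.31). In OSMI-1 libraries E2f1 had 33.7, 39.5, 29.7, 48.9 and 39.0 normalized counts, and in vehicle libraries it ran from 33.4 over a median of 40.1 to 54.1. The groups lay over each other, with a log2 fold change of -0.14 (95% interval -0.59 to 0.31, limma adjusted p = 0.7). The intervals of both arms exclude a fall of the size seen for E2f8.

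E2f4 and E2f5 are the members that work with pocket proteins, and E2f4 fell after knockdown. Its shOgt libraries had 126.3, 81.9, 132.7, 93.9 and 133.2 normalized counts, and its shLuc libraries ran from 133.1 over a median of 160.4 to 189.6. The highest shOgt library and the lowest shLuc library were level, and the other 4 shOgt libraries lay below the shLuc range. E2f4 averaged 113.6 ± 24.0 in shOgt cells and 162.9 ± 22.5 in shLuc cells (-0.53 ± 0.17, limma adjusted p = 0.021). The call was lost without shOgt replicate 2 or without shOgt replicate 5 (adjusted p up to 0.072). It was also lost without the 3 libraries that stood apart on principal components (shLuc replicates 1 and 3 and shOgt replicate 3), where the change was -0.48 (adjusted p = 0.06). In OSMI-1 libraries E2f4 had 36.5, 47.6, 45.2, 46.5 and 36.7 normalized counts, and in vehicle libraries it ran from 38.8 over a median of 56.4 to 72.3. These groups overlapped, and the change of -0.41 ± 0.20 was not called (limma adjusted p = 0.15).

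E2f5 pointed in different directions in the arms, and neither change was called. It had 48.9, 44.4, 39.5, 58.7 and 65.6 normalized counts in shOgt libraries, against a lowest value of 26.8, a median of 36.5 and a highest of 51.3 in shLuc libraries. It had 35.5, 40.6, 34.4, 25.1 and 17.2 normalized counts in OSMI-1 libraries, against a lowest value of 28.6, a median of 38.5 and a highest of 50.7 in vehicle libraries. The groups overlapped in both arms. The log2 fold changes were 0.44 ± 0.25 after knockdown (limma adjusted p = 0.2) and -0.34 ± 0.25 after OSMI-1 (limma adjusted p = 0.36). E2f5 shares exon sequence with a protein-coding gene on the other strand, 1810022K09Rik, so the strand doubt holds for it too.

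E2f6, the repressor of the Polycomb complex PRC1.6, was likewise not called. It had 173.4, 173.6, 128.5, 232.6 and 201.8 normalized counts in shOgt libraries, against a lowest value of 83.6, a median of 137.8 and a highest of 207.5 in shLuc libraries. It had 72.0, 85.2, 67.6, 105.0 and 98.5 normalized counts in OSMI-1 libraries, against a lowest value of 78.8, a median of 97.2 and a highest of 109.8 in vehicle libraries. Both pairs of groups overlapped. The log2 fold changes were 0.37 ± 0.20 after knockdown (limma adjusted p = 0.17) and -0.18 ± 0.16 after OSMI-1 (limma adjusted p = 0.45). Without the 3 libraries that stood apart, the change after knockdown was 0.69 and was called (adjusted p = 0.0083).

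**Figure D2:**
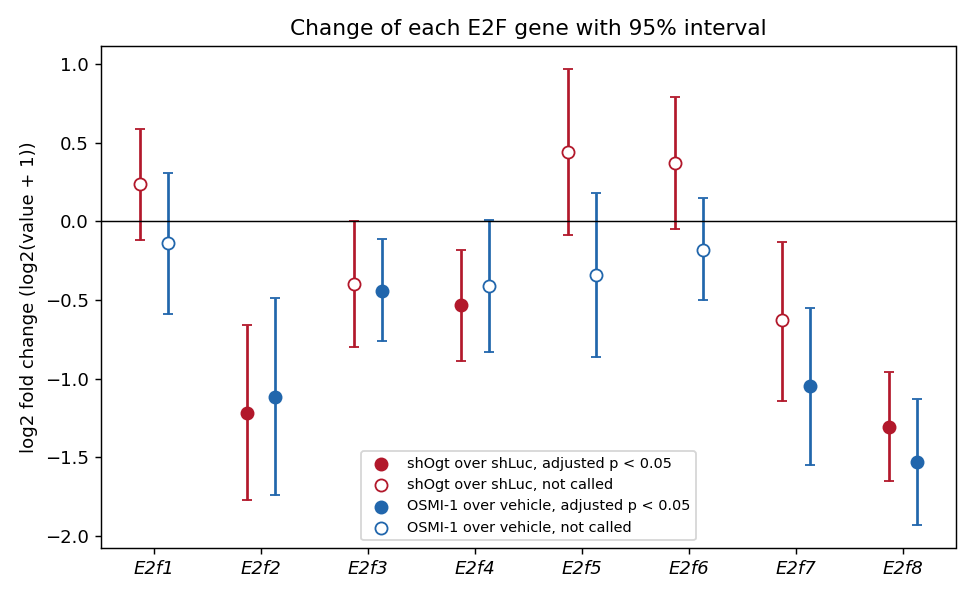
Log2 fold change of each E2F gene (points) with its 95% interval from limma (bars), shOgt over shLuc in red and OSMI-1 over vehicle in blue; filled points have an adjusted p below 0.05. E2f2 and E2f8 lie below -1 in both arms, and E2f1, E2f5 and E2f6 have intervals that include 0 in both.

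The difference between the arms was tested gene by gene as the change after knockdown minus the change after OSMI-1, over all 22 libraries. Of the 8 members, 0 were called by limma or by edgeR, against 22.9% of the 11269 genes in that fit, and 2 had an unadjusted p below 0.05. Those 2 were E2f5, with a difference of 0.78 ± 0.35 (95% interval 0.07 to 1.49, limma adjusted p = 0.11), and E2f6, with 0.55 ± 0.26 (95% interval 0.02 to 1.07, limma adjusted p = 0.13). For E2f8 and E2f2, the differences were 0.22 (95% interval -0.30 to 0.75) and -0.10 (95% interval -0.93 to 0.73). For E2f3 and E2f4, they were 0.04 (95% interval -0.46 to 0.53) and -0.12 (95% interval -0.64 to 0.40). E2f1 differed by 0.37 (95% interval -0.16 to 0.91). These intervals are wide, and they do not show that the arms acted alike on a member.

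Set per length, E2f4 mRNA led the family in shLuc cells, with 66.4 ± 9.19 normalized counts per kb of exon (SD, n = 6), above the range of every other member. E2f1 followed with 43.4 ± 5.85 per kb, then E2f8 with 33.7 ± 4.16. The ranges of neighbours from E2f1 down to E2f7, the lowest at 17.5 ± 6.16 per kb, overlapped. In shOgt cells E2f1 (51.9 ± 11.9 per kb) and E2f4 (46.3 ± 9.79 per kb) were the highest with overlapping ranges, and E2f8 stood sixth at 13.6 ± 2.45 per kb. The lowest level in shOgt cells was that of E2f2, with 8.35 ± 3.04 per kb.

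In the inhibitor arm the leading members had overlapping levels per length. In OSMI-1 cells E2f4 (17.3 ± 2.24 per kb), E2f5 (17.1 ± 5.24), E2f3 (16.2 ± 3.35) and E2f6 (15.1 ± 2.87) had overlapping ranges, and E2f2 was lowest at 3.84 ± 2.01. In vehicle cells E2f8 had the highest mean, with 25.5 ± 4.51 per kb, overlapping with E2f4 (23.5 ± 5.28 per kb), and E2f2 was the lowest with 7.84 ± 1.4. E2f1 stood sixth in vehicle cells at 13.4 ± 2.81 per kb. The order depends on the length used. With the longest protein-coding transcript in place of the union of exons, E2f6 was the highest in shOgt, OSMI-1 and vehicle cells (75.3, 35.4 and 39.7 per kb) and E2f4 stayed highest in shLuc cells (81.7 per kb), with a range that then overlapped that of E2f6.

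**Figure D3:**
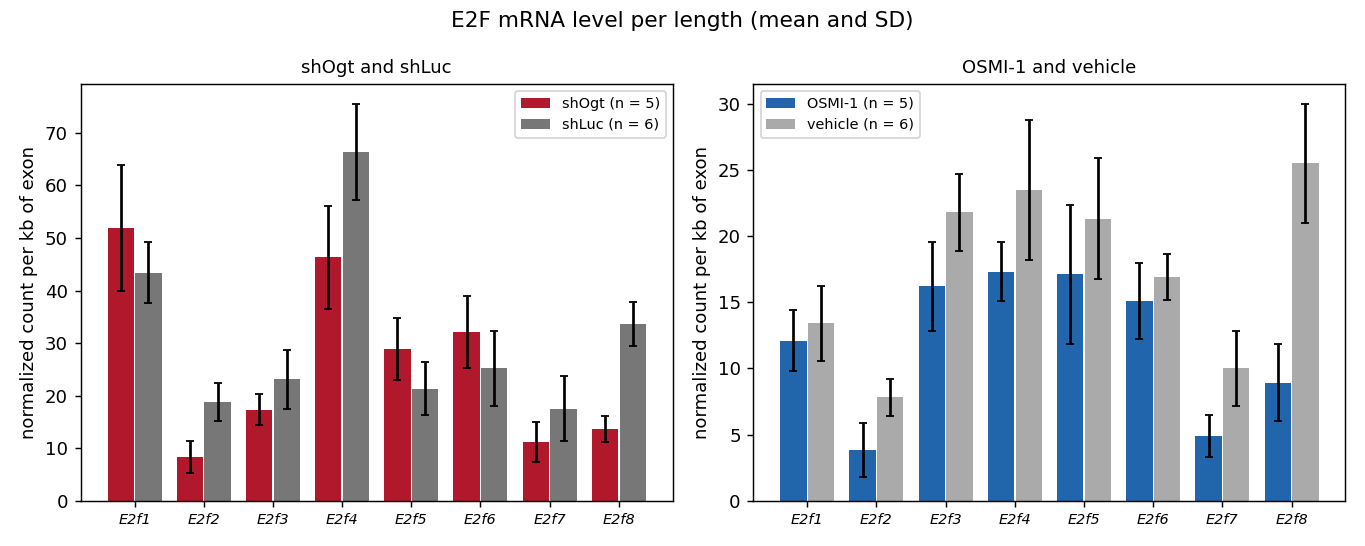
Level of each E2F gene as normalized counts per kb of annotated exon, mean (bars, from 0) and SD (lines), in shOgt and shLuc cells (left) and in OSMI-1 and vehicle cells (right); the vertical scales of the panels differ. E2f8 stood at 13.6 per kb in shOgt cells and 33.7 per kb in shLuc cells.

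The atypical repressors E2f7 and E2f8 together took a smaller share of the family's summed level per kb, and E2f8 made the larger part of that drop. By group means, E2f8 held 6.48% in shOgt and 13.5% in shLuc cells, and 9.34% in OSMI-1 and 18.2% in vehicle cells. E2f7 held 5.32% in shOgt and 7% in shLuc cells, and 5.11% in OSMI-1 and 7.13% in vehicle cells. The joint share was 11.8 ± 1.5% in shOgt libraries (9.5 to 13.2%), against 20.5 ± 1.41% in shLuc libraries (18.3 to 22.4%). It was 14.7 ± 4.16% in OSMI-1 libraries (10.2 to 19.5%), against 25.2 ± 2.28% in vehicle libraries (22.6 to 28.4%). The groups did not overlap in either arm, but no such share was taken over other genes, so the gap has no background. The share of the activators was 37.0 ± 6.35% in shOgt and 34.3 ± 4.68% in shLuc libraries, and 33.5 ± 4.27% in OSMI-1 and 30.9 ± 3.32% in vehicle libraries, with overlapping ranges. It joins members that moved apart after knockdown. By group means, E2f2 held 3.98% in shOgt and 7.53% in shLuc cells, E2f1 24.8% and 17.4%, and E2f3 8.24% and 9.28%. The joint share of E2f4 and E2f5 and the share of E2f6 had overlapping ranges in both arms. The summed level of all 8 genes was 203 to 220 per kb in shOgt libraries and 226 to 268 in shLuc libraries, and 86 to 108 in OSMI-1 libraries and 126 to 155 in vehicle libraries.

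Most E2F proteins bind DNA as dimers with a DP protein, and of the DP genes Tfdp1 fell after OSMI-1. Tfdp1, which encodes DP1, averaged 375.9 ± 33.2 normalized counts in OSMI-1 cells and 559 ± 40.9 in vehicle cells (-0.57 ± 0.09, limma adjusted p = 2.5e-05). After knockdown Tfdp1 was not called (817.2 ± 79.2 in shOgt cells and 945 ± 76.5 in shLuc cells; -0.21 ± 0.09, limma adjusted p = 0.075). The difference between the arms was called for Tfdp1, at 0.36 ± 0.12 (limma adjusted p = 0.027), but not without vehicle replicate 3 or OSMI-1 replicate 6 (adjusted p = 0.05 and 0.052). Without shOgt replicate 3, the fall of Tfdp1 after knockdown was called (adjusted p = 0.04). Tfdp2, which encodes DP2, had a change of -0.36 ± 0.13 after OSMI-1 (limma adjusted p = 0.056) and of 0.06 ± 0.12 after knockdown (limma adjusted p = 0.75). The change of Tfdp2 after OSMI-1 was called without vehicle replicate 5 or OSMI-1 replicate 2 (adjusted p down to 0.012).

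Of the 3 pocket protein genes, Rbl1 fell in both arms and Rbl2 rose after OSMI-1. Rbl1, which encodes p107, had 38.2, 77.9, 87.5, 37.4 and 54.1 normalized counts in shOgt libraries, and ran from 69.8 to 184.1 in shLuc libraries. It fell by 1.10 on the log2 scale after knockdown (SE 0.27, limma adjusted p = 0.0035) and fell by 0.73 after OSMI-1 (SE 0.18, limma adjusted p = 0.0044). Rbl2, which encodes p130, the pocket protein of resting cells, rose after OSMI-1, to 247.8 ± 26.9 in OSMI-1 cells, against 176.8 ± 38.3 in vehicle cells (0.51 ± 0.14, limma adjusted p = 0.0088). After knockdown Rbl2 had a change of 0.43 ± 0.17 (limma adjusted p = 0.059), which was called without shLuc replicate 2 (adjusted p = 0.023). Without the libraries that stood apart (vehicle replicate 1 and OSMI-1 replicate 5), Rbl2 after OSMI-1 had a change of 0.37 that was not called (adjusted p = 0.055). Rb1, which encodes RB itself, was read at a low and scattered level, 4.93 to 35.6 in shOgt libraries and 6.26 to 46.0 in shLuc libraries, and was not called (-0.51 ± 0.53, limma adjusted p = 0.5). After OSMI-1 its change was -0.21 ± 0.36 (limma adjusted p = 0.73).

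The MuvB core joins E2F4 or E2F5 and p107 or p130 in the repressive DREAM complex, and later pairs with B-MYB and FOXM1 to switch on mitotic genes. Of 8 MuvB and DREAM genes tested, 4 fell after knockdown and 3 after OSMI-1 (median log2 fold change -0.32 and -0.28), and the rest were not called. Of all tested genes, 16.4% fell after knockdown and 13.2% after OSMI-1. Mybl2, which encodes B-MYB, averaged 89.4 ± 39.8 normalized counts in shOgt cells and 193.6 ± 27.7 in shLuc cells (-1.20 ± 0.22, limma adjusted p = 0.00034), and it fell by 0.78 after OSMI-1 (limma adjusted p = 0.027). The call of Mybl2 after OSMI-1 was lost without any 1 of 5 libraries (vehicle replicates 4 and 5 and OSMI-1 replicates 1, 2 and 5; adjusted p up to 0.09). Foxm1 averaged 152.5 ± 38.9 in shOgt cells and 287.6 ± 66.1 in shLuc cells (-0.92 ± 0.17), and 81.5 ± 20.9 in OSMI-1 cells and 146.5 ± 27.6 in vehicle cells (-0.85 ± 0.18). Lin9, a MuvB core gene named after its values were seen, fell by 0.86 after knockdown and had a change of -0.36 ± 0.17 after OSMI-1. The histone-binding subunit gene Rbbp4 fell in both arms (-0.35 after knockdown and -0.37 after OSMI-1).

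Upstream of the E2F proteins stand the G1 cyclins and their kinases, which phosphorylate pocket proteins, and the kinase inhibitors. The cyclin E genes, themselves E2F targets, and their kinase gene Cdk2 fell in both arms. Ccne2 averaged 182.2 ± 35.1 normalized counts in shOgt cells and 301.6 ± 48.2 in shLuc cells (-0.73 ± 0.15), and 175.9 ± 47.3 in OSMI-1 cells and 333 ± 42.8 in vehicle cells (-0.96 ± 0.15). Ccne1 had changes of -0.52 after knockdown and -0.62 after OSMI-1, and Cdk2 of -0.58 and -0.54. The list of G1 cyclins and kinases as a whole had 3 fallen and 2 risen genes of 8 after knockdown, and 4 fallen and 2 risen after OSMI-1. Over all tested genes, 16.4% fell and 15.4% rose after knockdown, and 13.2% fell and 11.6% rose after OSMI-1. The risen genes of the list encode D cyclins and are named here after their values were seen. Ccnd2 rose in both arms, by 0.36 ± 0.06 after knockdown and 0.29 ± 0.06 after OSMI-1, and Ccnd1 rose by 0.18 ± 0.06 after OSMI-1. Ccnd3 rose by 0.24 ± 0.08 after knockdown and fell by 0.42 after OSMI-1, a difference of 0.66 ± 0.10 (limma adjusted p = 1.7e-05). The rise of Ccnd3 was not called without shLuc replicate 6, shOgt replicate 1 or shOgt replicate 5, or without the libraries that stood apart (adjusted p up to 0.081), so that 1 gene of the list had then risen. The rise of Ccnd1 was not called without any 1 of 6 libraries (vehicle replicates 2, 4 and 6 and OSMI-1 replicates 2, 4 and 5; adjusted p up to 0.089), nor with the libraries that stood apart left out (adjusted p = 0.052).

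Of 6 CDK inhibitor genes tested, 2 rose in both arms, whereas 15.4% of all tested genes rose after knockdown and 11.6% after OSMI-1. Cdkn2b, which encodes p15, an inhibitor of the cyclin D kinases, averaged 736.6 ± 43.8 normalized counts in shOgt cells and 332.9 ± 20.9 in shLuc cells (1.14 ± 0.09, limma adjusted p = 2e-08). After OSMI-1 it averaged 291.5 ± 36.2, against 205.2 ± 31.6 in vehicle cells (0.51 ± 0.12, limma adjusted p = 0.0029), and the difference between the arms was 0.63 ± 0.15 (limma adjusted p = 0.002). Cdkn1a, which encodes p21, rose by 0.52 ± 0.06 in each arm. Cdkn2d, which encodes p19-INK4D, fell in both arms (-0.72 after knockdown and -0.37 after OSMI-1). Cdkn1b, which encodes p27, fell by 0.44 after OSMI-1 (limma adjusted p = 0.022) and had a change of 0.37 ± 0.24 after knockdown (limma adjusted p = 0.26). Its fall was not called without vehicle replicate 4, OSMI-1 replicate 4 or OSMI-1 replicate 6 (adjusted p up to 0.071).

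A further list holds genes that act on the turnover of cell cycle proteins, E2F proteins among them, and 3 of 4 tested fell in each arm. The share of all tested genes that fell was 16.4% after knockdown and 13.2% after OSMI-1. Skp2, of the SCF ubiquitin ligase, averaged 444.1 ± 16.2 normalized counts in shOgt cells and 807.9 ± 30.0 in shLuc cells (-0.86 ± 0.08), and fell by 0.91 after OSMI-1. Fbxo5, an E2F target that encodes the APC/C inhibitor EMI1, fell in both arms (-0.95 after knockdown and -1.02 after OSMI-1). Ccnf, which encodes cyclin F, had changes of -0.66 after knockdown and -1.16 after OSMI-1, a difference of 0.50 ± 0.16 (limma adjusted p = 0.021).

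Of the genes listed as partners of E2F6 in PRC1.6, 9 of 11 tested were not called in each arm. Most tested genes were likewise not called, since 31.8% of all were called after knockdown and 24.8% after OSMI-1. L3mbtl2, a chromatin-binding subunit gene, fell in both arms (-0.44 ± 0.09 after knockdown and -0.45 ± 0.12 after OSMI-1). Yaf2 rose by 0.32 ± 0.10 after knockdown and had a change of -0.15 ± 0.11 after OSMI-1, a difference of 0.47 ± 0.14 (limma adjusted p = 0.015). Cbx3 fell by 0.38 after OSMI-1 and had a change of 0.31 ± 0.18 after knockdown, a difference of 0.69 ± 0.23 (limma adjusted p = 0.03). The fall of Cbx3 was not called without OSMI-1 replicate 4 (adjusted p = 0.072), and its change after knockdown was called without shOgt replicate 3 (adjusted p = 0.029). The difference for Cbx3 was not called without any 1 of 6 libraries (shLuc replicate 3, shOgt replicates 5 and 6, vehicle replicates 4 and 6 and OSMI-1 replicate 4; adjusted p up to 0.075). The rise of Yaf2 was not called without shOgt replicate 5 (adjusted p = 0.05).

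Coactivator genes linked to E2F1 were mixed. Of 8 tested, 3 fell and 1 rose after knockdown (background 16.4% and 15.4% of all tested genes). After OSMI-1, 1 fell and 1 rose (background 13.2% and 11.6%), shares near those of all genes in that arm. The list's median log2 fold change was -0.19 after knockdown and 0.03 after OSMI-1. Hcfc1, which encodes the cell cycle cofactor HCF-1, a protein that OGT modifies and cleaves, averaged 627.6 ± 60.6 normalized counts in shOgt cells and 883.9 ± 122 in shLuc cells (-0.49 ± 0.11), and fell by 0.38 after OSMI-1. The acetyltransferase gene Crebbp fell by 0.56 after knockdown, and its change after OSMI-1 was 0.27 ± 0.11 (limma adjusted p = 0.064), a difference of -0.84 ± 0.15 (limma adjusted p = 0.00013). The change of Crebbp after OSMI-1 was called without vehicle replicate 3 or OSMI-1 replicate 2 (adjusted p down to 0.035). Ep300, its relative, fell by 0.41 after knockdown and had a change of 0.12 ± 0.11 after OSMI-1, a difference of -0.54 ± 0.17 (limma adjusted p = 0.021). The fall of Ep300 was not called without any 1 of 6 libraries (shLuc replicates 2, 5 and 6 and shOgt replicates 1, 2 and 3; adjusted p up to 0.084), nor with the libraries that stood apart left out (adjusted p = 0.064). Kat2b, the gene that rose after knockdown, was named after its values were seen (0.90 ± 0.32, limma adjusted p = 0.034), and its call was lost without any 1 of 7 libraries (shLuc replicates 2, 4 and 5 and shOgt replicates 1, 2, 5 and 6; adjusted p up to 0.12). Trrap rose by 0.32 ± 0.09 after OSMI-1, with a change of 0.05 ± 0.09 after knockdown.

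The genes on which E2F proteins act at the start of S phase fell almost as a block. Of 41 G1/S targets tested, 35 fell after knockdown and 40 after OSMI-1, and the others were not called (Msh6 alone after OSMI-1). The background was 16.4% of all tested genes fallen after knockdown and 13.2% after OSMI-1. All gene lists here were written with earlier results of these data known, so such counts describe these libraries and are not independent evidence. The list's median log2 fold change was -0.87 after knockdown and -0.83 after OSMI-1. Gins1, a subunit gene of the replicative helicase, averaged 58.1 ± 16.8 normalized counts in shOgt cells and 187.8 ± 36.2 in shLuc cells (-1.70 ± 0.20). Tk1, which encodes thymidine kinase, averaged 882.1 ± 239 in shOgt cells and 2146 ± 301 in shLuc cells (-1.31 ± 0.14), and 283.2 ± 21.2 in OSMI-1 cells and 710.5 ± 63.7 in vehicle cells (-1.32 ± 0.09). Mcm10, a gene of the replication machinery, fell in both arms (-1.19 after knockdown and -1.01 after OSMI-1), as did the DNA repair genes Brca1 (-1.17 and -1.31) and Ung (-1.17 and -1.27). Between the arms, 8 of the 41 genes differed, 4 in each direction, against 11.5% of all genes higher and 11.4% lower after knockdown than after OSMI-1. Those higher after knockdown, named after their values were seen, were Cdc25a, Tyms, Nasp and Slbp (differences of 0.41 to 0.74), and those lower were Cdc6, Pola1, Dnmt1 and Pcna (-0.60 to -0.39). The difference of Cdc25a was not called without shOgt replicate 2 or OSMI-1 replicate 2, nor that of Pola1 without shOgt replicate 1 (adjusted p up to 0.055).

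**Figure D4:**
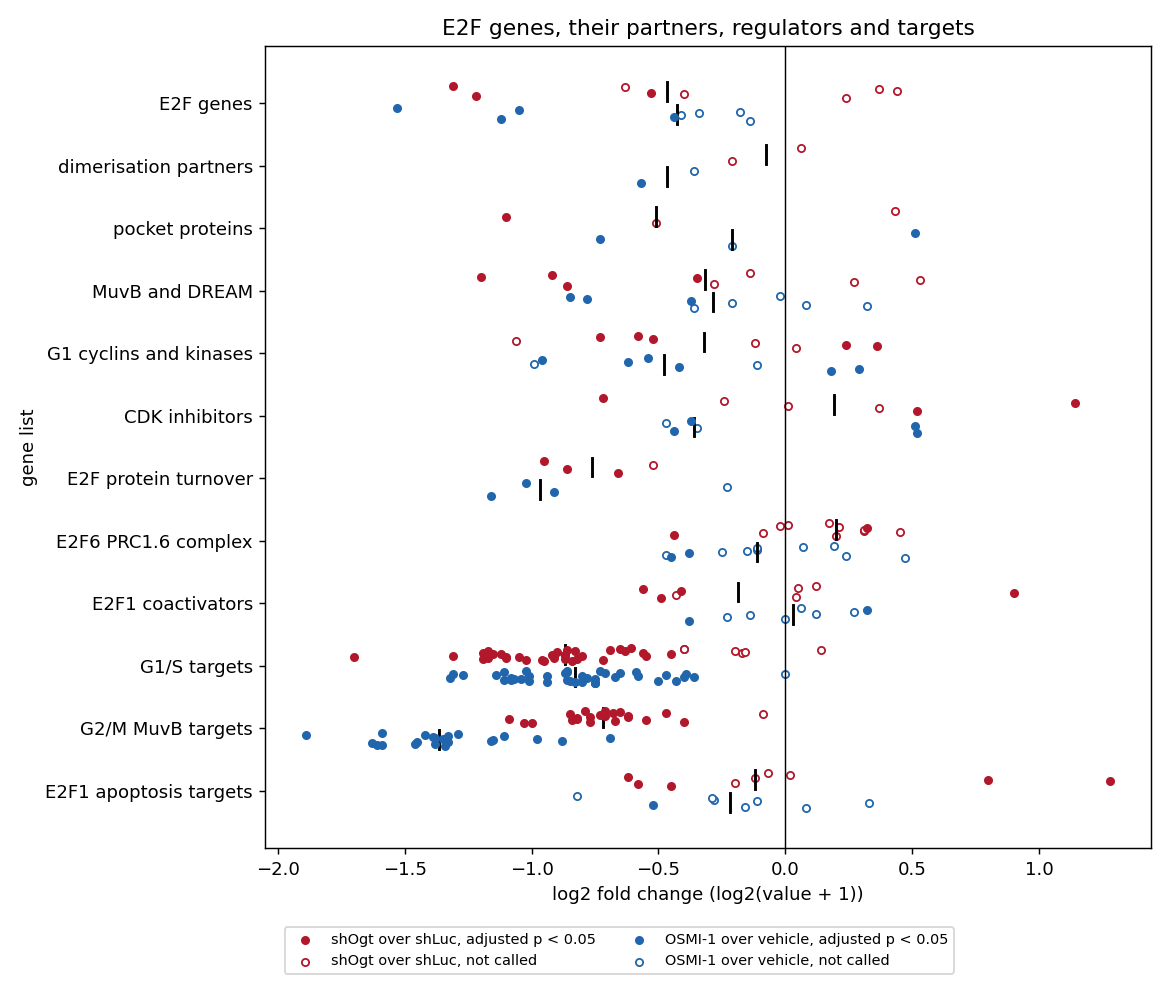
Log2 fold change of each tested gene (points) in the E2F family and in lists of its partners, regulators and targets, shOgt over shLuc in red above OSMI-1 over vehicle in blue; filled points have an adjusted p below 0.05 and black lines are list medians. The G2/M targets have a median of -0.72 after knockdown and -1.36 after OSMI-1, whereas the G1/S targets have -0.87 and -0.83.

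The mitotic targets of MuvB with B-MYB and FOXM1 fell in both arms as well, and fell further after OSMI-1. Of 22 tested, 21 fell after knockdown and 22 after OSMI-1, with median log2 fold changes of -0.72 and -1.36. Of all tested genes, 16.4% and 13.2% fell. In the test of the difference, 15 of the 22 genes were higher after knockdown than after OSMI-1, against 11.5% of all genes in that fit. The other 7 were not called. The arms also differed in time (3 days and 24 h) and in the use of lentivirus, and the cause of the difference was not tested. The gene that was not called after knockdown was Kif23, named after its values were seen, with changes of -0.09 ± 0.12 after knockdown and -1.39 ± 0.12 after OSMI-1. Ube2c, a ubiquitin-conjugating enzyme gene of mitotic exit, averaged 1086 ± 142 normalized counts in shOgt cells and 1693 ± 170 in shLuc cells (-0.65 ± 0.09), and 304.6 ± 19.4 in OSMI-1 cells and 1134 ± 50.8 in vehicle cells (-1.89 ± 0.07). Its difference between the arms was 1.25 ± 0.12 (limma adjusted p = 1.4e-09). The mitotic kinase gene Plk1 had changes of -0.84 after knockdown and -1.63 after OSMI-1, a difference of 0.79 ± 0.11 (limma adjusted p = 1.6e-06). Aurkb had changes of -1.09 and -1.33, a difference of 0.24 ± 0.13 that was not called (limma adjusted p = 0.18) except without shOgt replicate 6 (adjusted p = 0.049). The proliferation marker gene Mki67 had changes of -1.03 and -1.34, a difference of 0.31 ± 0.19 that was not called (limma adjusted p = 0.26).

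E2F1 can also activate genes of apoptosis, and that list was mixed. Of 9 tested after knockdown, 2 rose and some others fell, whereas 15.4% of all tested genes rose and 16.4% fell. Pmaip1, which encodes the BH3-only protein NOXA, averaged 297.9 ± 34.4 normalized counts in shOgt cells and 170.9 ± 24.2 in shLuc cells (0.80 ± 0.13, limma adjusted p = 0.00013), with a change of 0.33 ± 0.14 after OSMI-1 (limma adjusted p = 0.097) that was called without OSMI-1 replicate 4 (adjusted p = 0.02). Bbc3, which encodes PUMA, and Apaf1 were named after their values were seen, with changes of 1.28 ± 0.42 and -0.45 ± 0.16 after knockdown. Bbc3 was read at a low level, 20.8 ± 1.13 normalized counts in shOgt cells and 8.61 ± 3.83 in shLuc cells. The call of Bbc3 was lost without shLuc replicate 6, shOgt replicate 1 or shOgt replicate 5 (adjusted p up to 0.054). That of Apaf1 was lost without any 1 of 7 libraries (shLuc replicates 2, 4, 5 and 6 and shOgt replicates 1, 3 and 6; adjusted p up to 0.11). Casp8ap2, which encodes a caspase-8-associated protein, fell by 0.62 after knockdown, a change not called without shOgt replicate 3 (adjusted p = 0.062), nor with the libraries that stood apart left out (adjusted p = 0.088).

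The genes with the pattern most like each member were sought over the 22 libraries. The measure was the root mean square difference of log2 values centred on the controls of each arm. Candidates were 6990 genes outside the family, tested in both arms and averaging at least 100 normalized counts in each. Genes at lower levels and the other members could thus not be chosen. Nearest to E2f8 were Aurkb (0.30), Fam64a (0.30) and Tk1 (0.31), where the median over all candidates was 1.02. Nearest to E2f2 were Mdc1 (0.38), Cdc45 (0.39) and Mcm5 (0.40), with a median of 0.93, and nearest to E2f7 were Rfc5 (0.40), Cenpw (0.41) and Ccnf (0.41), with a median of 0.77. For E2f3 they were Nup205, Sf3a1 and 6430706D22Rik (0.22 to 0.23, median 0.44). For E2f4 they were Pdap1, Phf5a and Plvap (0.22 to 0.23, median 0.47). For E2f1 they were Adam9, Pdik1l and Coq3 (0.21 to 0.22), for E2f5 St3gal6, Caml and Pgrmc1 (0.27 each), and for E2f6 Sri, Exosc3 and Tubgcp4 (0.25 each), with medians of 0.38, 0.49 and 0.42. All libraries of an arm share a normalization, and the distances describe these libraries only.

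In the authors' deposited table for the knockdown, 4 members pass an adjusted p of 0.05: E2f8, E2f2, E2f4 and E2f7, the last with an adjusted p of 0.04 and a log2 fold change of -0.65. In the authors' deposited table for the inhibitor, 4 members pass, E2f8, E2f7, E2f2 and E2f3, and its fold changes run as vehicle over OSMI-1, so that E2f8 has a positive value there. The 2 sources thus differ for E2f7 after knockdown and call the other members alike.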

How the data were processed

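RNA was sequenced in 22 libraries, and the submitters' processing notes name STAR, RSEM and DESeq2 without versions and the build hg38, although the tables carry mouse symbols. The labels' protocol describes strand-specific poly(A) libraries and the series design text Smart-Seq2; this was not settled. Per the file headers, each table holds the authors' normalized counts per library (a signal that is never negative), a log2 fold change with its error, a Wald statistic (a score) and p-values with adjusted p-values. Every positive value was a multiple of the library's step (100% within 0.001 of a whole number), which gave back the reads; 0 library columns lacked a sample. Depth is given with the results.

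Low genes were removed with filterByExpr of edgeR (minimum count 10, total 15). limma 3.58.1 with an intensity trend was run on log2(normalized count + 1) in R 4.3.3 within each arm without covariates, two-sided, with Benjamini-Hochberg adjustment, and over all 22 libraries for the difference between arms. Alternatives used edgeR 4.0.16 (quasi-likelihood), DESeq2 1.42.0, TMM, pseudocounts of 0.5 and 5, no filter, a mean of at least 50, 1 fit for all libraries, a replicate block and leaving out each library. The scripts were first tested on simulated data. Lengths and positions came from GENCODE vM21 and promoters from RefSeq. Beside the 8 members, Ogt, Mki67, DP and pocket protein genes, the text names up to 3 called genes per list and arm with the largest change and a mean of at least 100, and the 3 nearest genes of each member. Members, lists and the naming rule were chosen with earlier results of these data known. Some results on the list of apoptosis genes are not reported here.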

Additional observations from a re-analysis of the deposited data

Results flagged for a closer look

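Among 60 combinations of a gene (the 8 E2F genes, Ogt, Mki67, and the DP and pocket protein genes) and a group of 5 or 6 libraries, 2 had a library far from the others of its group by Dixon's criterion at 95%, where chance flags about 5% of groups. Ogt in shLuc replicate 2 was the highest of its group, with 1004 normalized counts, the other 5 shLuc libraries lying between 737.1 and 835.7. It lies on the side away from the shOgt libraries, which ran from 348.7 to 524.4. Rb1 in vehicle replicate 3 was the lowest of its group, with 14.1 normalized counts, the other 5 vehicle libraries lying between 31.7 and 41.1. No library of an E2F gene was flagged in this way. The cause of both values was not tested.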

How the results depend on the processing

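E2f8, E2f2 and, after OSMI-1, E2f7 kept their direction and call in every setting that tested them. E2f7 after knockdown (-0.63, not called) was called with edgeR (-0.65), DESeq2 (-0.65), TMM (-0.65), a pseudocount of 5 (-0.61), a mean of at least 50 (-0.63) and the replicate block (-0.73, adjusted p = 0.0059). E2f3 after OSMI-1 (-0.44) was not called without a filter (-0.44), in 1 fit of all libraries (-0.44) or with the replicate block (-0.42, adjusted p = 0.078). Without the libraries that stood apart, a setting chosen after seeing the data, E2f4 after knockdown was -0.48 and no longer called, and E2f6 was 0.69 and called. The causes were not tested. The replicate numbers gave little sign of pairing. Deviations of same-numbered libraries correlated at -0.0086 to 0.16 (knockdown) and -0.099 to 0.051 (inhibitor), and 1 of 5 and 0 of 5 matched best with their own number. The match was that of shOgt replicate 3 with shLuc replicate 3 (0.161). These libraries also lay close together on the third principal component (-34.0 and -33.6). Whether they share a batch was not tested. The block called 3962 genes after knockdown and 2376 after OSMI-1, against 3855 and 2815 without it. With 1 library left out, 2 to 4 members were called after knockdown and 3 to 4 after OSMI-1, among 3208 to 3897 and 2428 to 2680 genes. The log2 fold changes then ran over -0.60 to -0.42 for E2f4, -0.78 to -0.49 for E2f7 and -0.50 to -0.29 for E2f3 after knockdown, and over -0.53 to -0.35 for E2f3 after OSMI-1. Some other members that were not called moved by more in proportion. After knockdown these were E2f1 (0.13 to 0.36) and E2f6 (0.23 to 0.49). After OSMI-1 they were E2f1 (-0.23 to -0.05), E2f5 (-0.45 to -0.16) and E2f6 (-0.25 to -0.10). E2f5 after knockdown (0.35 to 0.53) and E2f4 after OSMI-1 (-0.51 to -0.34), also not called, did not. After knockdown, E2f7 was called without shLuc replicates 4 or 5 or shOgt replicates 1 or 3, and E2f3 without shLuc replicate 1. The difference between the arms for E2f6 ran over 0.41 to 0.67 and was called without shLuc replicate 1 (adjusted p = 0.049). With a mean of at least 50, some members were not tested (E2f5 in both arms, E2f1 and E2f2 in the inhibitor arm). Among the members, E2f2 had the widest error in both arms (SE 0.27 after knockdown and 0.30 after OSMI-1).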

Other observations

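E2F genes also take part in the programme of multiciliated cells, where E2F4 and E2F5 work with the cofactors encoded by Gmnc and Mcidas. Of 6 such genes listed, 5 were in the data and 2 reached the filter, of which 1 fell after OSMI-1. Of all tested genes, 13.2% fell in that arm. The fallen gene was Foxj1, which encodes a regulator of motile cilia. Foxj1 had a log2 fold change of -1.20 ± 0.19 after OSMI-1 (limma adjusted p = 6.6e-05) and of -0.49 ± 0.28 after knockdown (limma adjusted p = 0.19). Foxj1 and Ccno were named after their values were seen. Ccno had changes of -0.84 ± 0.47 and -0.88 ± 0.53, which were not called. Of 8 germline genes known as targets of E2F6 repression, 1 reached the filter, Stag3, with changes of 0.02 ± 0.25 after OSMI-1 and of -0.59 ± 0.23 after knockdown, neither called. Without shLuc replicate 1 or shOgt replicate 5, or without the libraries that stood apart, the change of Stag3 after knockdown was called (adjusted p = 0.0029 to 0.035).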
